A study of Mus musculus with 4 samples.

Results

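The genes of the collagen chains were followed in stem cells of mouse skin squamous cell carcinoma that differed in the activity of a transforming growth factor beta (TGF-β) reporter. Members were all genes whose symbol is Col, a number, the letter a and a number. Col17a1, which encodes a hemidesmosome protein of the keratinocyte membrane, was left out. The rule gave 43 genes of the 31728 in the files, and it used no measured value. Of these, 42 were above 0 in at least 1 library, 22 reached 1 FPKM and 8 reached 10 FPKM in any library. FPKM divides the fragments of a transcript by its length and by the size of the library, so levels of full transcripts can be compared between chains. A gene's value here is a sum over its transcripts that counts short pieces in full, which limits such comparisons, as described below.

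The cells came from primary skin carcinomas of C57BL/6 X FBV mice, and all 4 libraries carried TetO-Hras together with the LV-rtTA3-TGF-beta reporter. TetO-Hras is an Hras oncogene under a tetracycline-responsive promoter, and rtTA3 is the activator of that promoter. The labels do not say which promoter drives rtTA3. Stem cells were depleted of other lineages, purified by the surface proteins integrin alpha6 and CD44, and split by the fluorescence of the reporter (mCherry) into a negative fraction, labelled as lacking TGF-β signalling, and a positive one. Each fraction gave 1 library in each of 2 experiments, so n = 2 per group. The labels give no age. Whether each experiment had its own animals is not stated, so a p-value here reflects the spread among 4 libraries, which may be technical. There was no group without the oncogene or the reporter.

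Collagens are triple helices of 3 chains. Fibrillar collagens (types I, III and V) build the cross-striated fibrils of the dermis, and FACIT collagens (fibril-associated collagens with interrupted triple helices, such as XII and XVI) lie on or beside such fibrils. Type IV forms the network of the basement membrane under the epidermis, type VII forms the anchoring fibrils that hold this membrane to the dermis, and types XV and XVIII carry glycosaminoglycan chains in basement membranes. In skin, fibroblasts are known as the main source of fibrillar collagen, while keratinocytes also make type VII. TGF-β is known in fibroblasts as an inducer of collagen genes.

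Depth, recovered from coverage and FPKM, was 3.13 to 3.75 gigabases of aligned sequence per library. The log2 values of libraries of 1 fraction correlated across the 11969 genes tested with r of at least 0.95, and those of different fractions with r of at most 0.936, and genes are not independent replicates. Of 10 keratinocyte markers 7 were listed, and Krt5, Krt14 and Krt15 were not analysed here. The 7 summed to 3819 FPKM (experiment 1) and 3712 FPKM (experiment 2) in the negative fraction, against 6017 and 6104 FPKM in the positive fraction. Perp and Sfn made up most of this sum. Cdh1, Perp and Sfn were higher in the positive fraction in both experiments and Trp63, Epcam, Itga6 and Itgb4 lower in both, and none of the 7 passed the test described below.

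No collagen chain gene was higher in the reporter positive fraction, and 3 were lower: Col12a1, Col16a1 and Col4a6. The test was limma on log2(FPKM + 1) with Benjamini-Hochberg adjustment over all genes and a threshold of 0.05. It covered the 18 members that reached 1 FPKM in 2 or more libraries, and 15 of these did not pass. At an unadjusted p under 0.05, 9 members were lower and 0 higher, beside 18% and 7.59% of all genes tested. With median-of-ratios scaling 5 members were lower and 0 higher at that unadjusted p, and with quantile normalization 6 and 0. The shares of all genes at that p were not taken under these scalings. Over all genes tested 2.52% passed as lower (302 genes) and 2.55% as higher (305). Median-of-ratios scaling gave 202 lower and 455 higher, and quantile normalization 252 and 407. The 607 calls became 176 without the negative library of experiment 2, and 364 and 390 without the positive library of experiments 1 and 2. Col4a6 entered the test only through the reporter negative libraries. On annotated Ensembl transcripts alone Col1a2, Col6a1 and Col28a1 were listed at 0 in all 4 libraries, so assembled transcripts were added to their genes. With Ensembl transcripts alone, 11 members were tested and 0 passed in limma (0.283% of all genes passed as lower), with 6 lower and 0 higher at an unadjusted p under 0.05. Bulk libraries cannot tell fewer cells of a type from less RNA per cell.

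The median change of the 18 members, positive minus negative in log2(FPKM + 1), was -0.85, beside -0.18 over all genes tested. This scale understates the change of genes at low FPKM. The fitted change was below 0 for 17 of the 18, Col13a1 being the exception, while 68.9% of all genes tested had a change below 0. The 2 groups of libraries did not overlap, with the positive ones lower, for 13 of the 18 (42.6% of all genes tested), and with the positive ones higher for 0 (15.3%). Over the 42 members above 0 in any library, 29 were lower in the positive fraction in both experiments (44.7% of such genes) and 2 were higher in both (18.2%). Median-of-ratios scaling moved the median of all genes to 0.03 and that of the members to -0.67, with 17 of 18 again below 0.

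**Figure D1:**
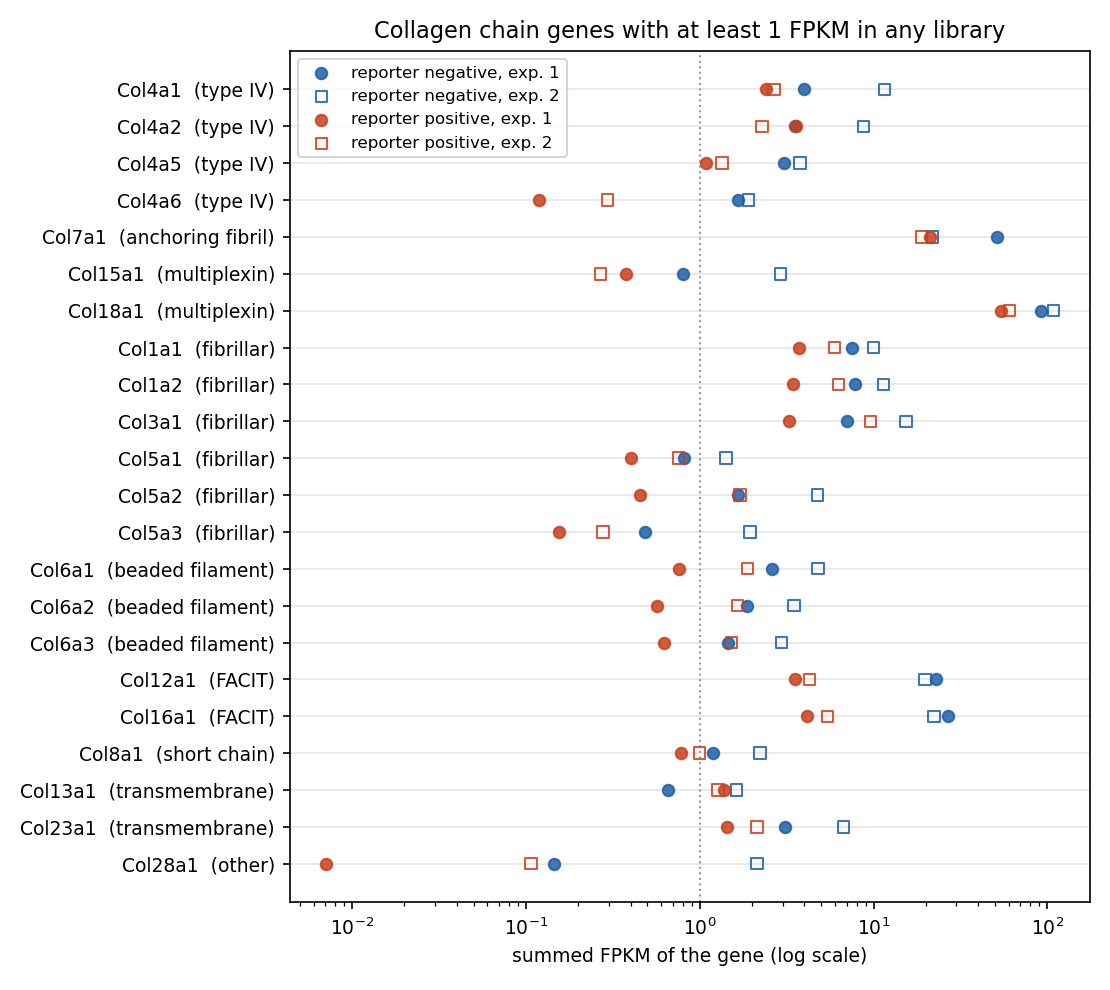
Summed FPKM (log axis) of the 22 collagen chain genes with at least 1 FPKM in any library, 1 marker per library, ordered by collagen class. Blue markers are reporter negative and red markers reporter positive libraries; circles are experiment 1 and squares experiment 2. The red markers of Col12a1 and Col16a1 lie well to the left of the blue ones, and Col18a1 is the most abundant chain in every library.

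On the log2(FPKM + 1) scale the 2 FACIT chains with at least 1 FPKM showed the largest changes among the members tested. With a pseudocount of 0.1, Col4a6 had the larger change, -2.67 against -2.42 for Col12a1 and -2.34 for Col16a1. Col12a1 encodes the chain of type XII, which binds the surface of collagen fibrils and lies at chr9:79446798-79566638 on the minus strand (mm9, the build of the files). In the negative fraction it was 23.0 FPKM in experiment 1 and 19.7 FPKM in experiment 2, and in the positive fraction 3.52 and 4.30 FPKM. Values below keep this order of experiments. Both positive libraries were far below both negative ones. The negative mean was 5.46 times the positive mean, and the change was -2.19 ± 0.187 (SE) on the log2 scale (limma, adjusted p = 0.0142).

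Col16a1 encodes the chain of type XVI, found beside fibrils and near the dermal-epidermal junction (chr4:129725084-129776527, plus strand, mm9). Its values were 26.8 and 22.3 FPKM in the negative libraries and 4.16 and 5.42 FPKM in the positive ones. The groups were apart in the same way as for Col12a1. The negative mean was 5.13 times the positive mean, with a change of -2.15 ± 0.201 (limma, adjusted p = 0.0168). Both genes also passed in each of the 4 fits that left out 1 library.

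Of the 9 FACIT genes listed, the other 7 (Col9a1, Col9a2, Col9a3, Col14a1, Col19a1, Col20a1 and Col22a1) stayed under 1 FPKM in every library. The FACIT sum was 50.02 and 42.5 FPKM in the negative libraries and 7.80 and 9.92 FPKM in the positive ones, nearly all of it from Col12a1 and Col16a1.

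How a gene's transcripts were summed bears on these values. The files list annotated and assembled transcripts, and in experiment 1 some of a collagen gene's FPKM lay on short pieces from its 3′ end. Transcripts under 50% of the length of the gene's longest annotated one held 29.4% of all collagen FPKM in the negative library of experiment 1 and 2.75% in that of experiment 2. In the positive libraries they held 19.6% and 11.6%. A length-weighted sum, chosen after seeing the data, counts each transcript by its share of the longest one.

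With length weighting Col12a1 was 11.3 and 19.8 FPKM in the negative libraries and 1.91 and 4.30 FPKM in the positive ones. The positive libraries stayed below both negative ones, but the larger spread ended the call (limma, change -2.03 ± 0.400, adjusted p = 0.0606; 0.00557 with experiment as a block). Col16a1 was 13.3 and 19.7 FPKM against 3.63 and 4.46 FPKM and kept its call (-1.78 ± 0.240, adjusted p = 0.0291). In the negative library of experiment 1 a 3-exon, 833-base transcript of Col16a1 held 14.1 FPKM, and that transcript was listed at 0 in the other 3 libraries.

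The promoter window of Col16a1 is printed because it is the passing FACIT gene with an entry in the RefSeq table (GRCm38.p6). Windows are the 250 bases before the start, 5′ to 3′ on the gene's strand. The motifs searched on both strands were CAGAC, the core of a known Smad binding element (GTCTG on the other strand), and TGANTCA, a known AP-1 element. Matches are in capitals, and this window (chr4:130047590-130047839, plus strand) holds neither.
Col16a1: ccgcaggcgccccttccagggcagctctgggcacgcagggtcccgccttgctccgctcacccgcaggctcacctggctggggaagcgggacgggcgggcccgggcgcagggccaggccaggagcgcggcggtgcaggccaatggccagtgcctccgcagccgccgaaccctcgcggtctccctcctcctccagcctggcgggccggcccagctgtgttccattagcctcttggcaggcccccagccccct
CAGAC was in 17 of the 37 windows of the 34 members with an entry, and in 42.2% of all 32851 windows of this length. TGANTCA was in 1 of the 37, that of Col6a1, and in 6.75% of all windows.

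The basement membrane chains split into a low type IV group and the abundant Col7a1 and Col18a1. Of the 6 type IV genes, which encode chains α1 to α6, Col4a3 and Col4a4 stayed under 1 FPKM in every library. Among the 4 tested, Col4a6 passed as lower and the other 3 did not pass. The type IV sum was 12.3 and 26.0 FPKM in the negative libraries and 7.19 and 6.63 FPKM in the positive ones.

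Col4a5 and Col4a6 encode chains that join in the α5 and α6 network of epidermal basement membrane. They lie head to head on chromosome X, at chrX:137909928-138123777 on the plus strand and chrX:137599946-137908619 on the minus strand (mm9). Col4a6 was 1.66 and 1.90 FPKM in the negative libraries and 0.119 and 0.296 FPKM in the positive ones. The groups were well apart, with a negative mean 8.59 times the positive mean and a change of -1.21 ± 0.205 (limma, adjusted p = 0.0478). Without the positive library of experiment 1 or that of experiment 2 the adjusted p was 0.185 or 0.101, and median-of-ratios scaling gave 0.0509. It could not be tested without either negative library, nor with length weighting, where it stayed under the filter.

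Col4a5 was 3.05 and 3.77 FPKM in the negative libraries and 1.09 and 1.34 FPKM in the positive ones. The groups did not overlap, and the experiments gave nearly the same ratio of negative to positive, 2.80 and 2.81. The change was -0.99 ± 0.208 (limma, adjusted p = 0.0688), and it passed with experiment as a block (adjusted p = 0.0475). Col4a5 exceeded Col4a6 1.84-fold and 1.98-fold in the negative libraries, and 9.14-fold and 4.54-fold in the positive ones. The positive ratios rest on low values of Col4a6, 0.119 and 0.296 FPKM. With length weighting the ratios were 2.59 and 1.65 in the negative libraries and 6.47 and 4.71 in the positive ones.

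The windows of this pair are printed because both genes lie lower in the positive fraction and start 1343 bases apart in RefSeq (GRCm38.p6), at chrX:141475169-141475418 on the plus strand and chrX:141474077-141474326 on the minus strand. Neither holds a match to either motif.
Col4a5: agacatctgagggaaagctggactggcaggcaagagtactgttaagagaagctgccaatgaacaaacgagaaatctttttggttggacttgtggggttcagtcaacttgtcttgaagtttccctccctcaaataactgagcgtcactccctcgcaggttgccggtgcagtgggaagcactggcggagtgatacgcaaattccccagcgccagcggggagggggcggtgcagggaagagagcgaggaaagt
Col4a6: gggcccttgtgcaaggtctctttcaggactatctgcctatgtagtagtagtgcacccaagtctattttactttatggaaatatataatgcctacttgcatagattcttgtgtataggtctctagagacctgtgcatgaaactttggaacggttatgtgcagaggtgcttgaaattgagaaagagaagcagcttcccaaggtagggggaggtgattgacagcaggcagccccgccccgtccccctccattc

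Col4a1 and Col4a2 encode the chains of the common type IV network of most basement membranes. Col4a1 was 3.98 and 11.5 FPKM in the negative libraries and 2.40 and 2.68 FPKM in the positive ones. Its high value in experiment 2 set it apart from the rest, and the change of -1.16 ± 0.463 did not pass (limma, adjusted p = 0.206). Without the negative library of experiment 1, the change was -1.83 and passed (limma, adjusted p = 0.0244), and without that of experiment 2 it was -0.49 (adjusted p = 0.248).

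Col4a2 was 3.54 and 8.78 FPKM in the negative libraries and 3.57 and 2.28 FPKM in the positive ones. The groups overlapped, since the libraries of experiment 1 were level (limma, change -0.78 ± 0.426, adjusted p = 0.317). The genes share a start region on chromosome 8 (chr8:11198423-11312826, minus strand, and chr8:11312805-11449287, plus strand, mm9), and no source used here says whether counting used strand.

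Col7a1, the chain of the anchoring fibrils (chr9:108855631-108886920, plus strand, mm9), was 51.3 and 21.8 FPKM in the negative libraries and 21.1 and 18.9 FPKM in the positive ones. The negative library of experiment 1 was high and the other 3 close together, and the change of -0.72 ± 0.410 did not pass (limma, adjusted p = 0.335). Of its 51.3 FPKM, 35.5 lay on an assembled 3′ transcript of 23 exons and 1503 bases, and 15.8 on the annotated transcript of 9250 bases. That full transcript held 21.8 FPKM in the negative library of experiment 2, and 5.54 and 8.16 FPKM in the positive libraries.

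The length-weighted values of Col7a1 were 21.6 and 21.8 FPKM in the negative libraries and 8.37 and 9.81 FPKM in the positive ones. On this measure both positive libraries were well below 2 nearly equal negative ones, and Col7a1 passed (limma, change -1.17 ± 0.151, adjusted p = 0.0271; 2.69% of all genes passed as lower). The window of Col7a1 is printed because Col7a1 is a member whose call turned on the way transcripts were summed. It holds 1 match to CAGAC, read as GTCTG (chr9:108953336-108953585, plus strand, GRCm38.p6).
Col7a1: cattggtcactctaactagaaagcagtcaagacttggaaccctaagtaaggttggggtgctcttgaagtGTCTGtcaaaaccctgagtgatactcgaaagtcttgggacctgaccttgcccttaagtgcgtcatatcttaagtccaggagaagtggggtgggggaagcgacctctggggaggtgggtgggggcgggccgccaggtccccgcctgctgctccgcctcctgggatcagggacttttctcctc

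**Figure D2:**
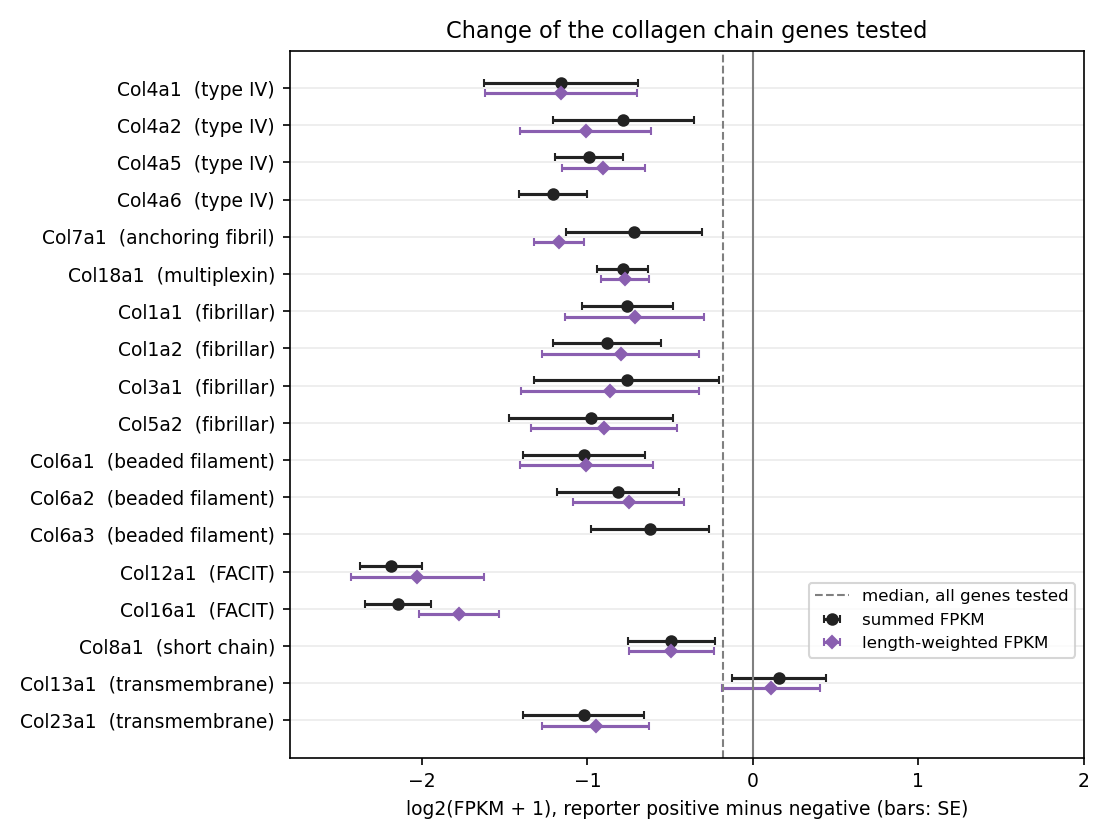
Change of the 18 members tested, as the log2(FPKM + 1) of reporter positive less that of negative libraries, with SE bars, n = 2 libraries per group. Black circles use summed FPKM and purple diamonds length-weighted FPKM, which left 16 members above the filter. The dashed line is the median of all genes tested (-0.18). Col12a1 and Col16a1 lie at -2.19 and -2.15 on summed FPKM, Col7a1 moves left with length weighting, and Col13a1 alone lies above 0.

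Col18a1 encodes the chain of type XVIII, a heparan sulfate proteoglycan whose C-terminal fragment is endostatin. It was the most abundant collagen gene, at 91.7 and 108 FPKM in the negative libraries and 54.3 and 60.5 FPKM in the positive ones. The groups were apart, with a mean of 100 ± 11.8 (SD) against 57.4 ± 4.35 FPKM (n = 2 each). The change of -0.79 ± 0.154 did not pass (limma, adjusted p = 0.0599) and passed with experiment as a block (adjusted p = 0.0271).

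A pair of starts of Col18a1 is in the files, 52843 bases apart, and RefSeq has 2 windows 52825 bases apart. The annotated transcript ENSMUST00000081654 begins at the upstream start (chr10:76514923-76629293, minus strand, mm9). It held 66.8 and 81.3 FPKM in the negative libraries and 54.3 and 60.5 FPKM in the positive ones. ENSMUST00000105409 begins at the downstream start (chr10:76515761-76576450, minus strand, mm9) and held 10.3 and 27.0 FPKM in the negative libraries. It was listed at 0 in both positive libraries, where all Col18a1 FPKM lay on the transcript from the upstream start. Single transcripts were not tested. Their 2 windows are printed for comparison, the upstream one (chr10:77166531-77166780, minus strand, GRCm38.p6) without a match and the downstream one (chr10:77113706-77113955, minus strand, GRCm38.p6) with 1 match to CAGAC, read as GTCTG.
Col18a1, upstream start: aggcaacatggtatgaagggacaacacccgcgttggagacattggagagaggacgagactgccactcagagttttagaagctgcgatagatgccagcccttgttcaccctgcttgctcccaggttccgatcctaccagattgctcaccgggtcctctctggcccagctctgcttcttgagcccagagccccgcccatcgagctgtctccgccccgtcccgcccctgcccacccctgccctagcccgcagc
Col18a1, downstream start: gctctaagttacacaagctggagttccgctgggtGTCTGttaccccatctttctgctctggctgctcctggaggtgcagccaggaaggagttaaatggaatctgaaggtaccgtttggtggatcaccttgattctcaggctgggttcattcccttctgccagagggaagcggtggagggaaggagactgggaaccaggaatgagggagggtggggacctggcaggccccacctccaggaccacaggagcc

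Col15a1, the chain of the related type XV, was 0.796 and 2.93 FPKM in the negative libraries and 0.379 and 0.269 FPKM in the positive ones. It was too low to be tested, and its negative library of experiment 2 was the highest.

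Of the 11 fibrillar genes, 9 were lower in the positive fraction in both experiments (44.7% of genes above 0 in any library). The 6 that reached 1 FPKM in any library were among these. They were also higher in experiment 2 than in experiment 1 in both fractions (41.8% of all genes tested). Col5a1 and Col5a3 reached 1 FPKM only in the negative library of experiment 2, so the filter fixed their highest library. None of the 4 fibrillar genes tested passed (2 were lower at an unadjusted p under 0.05). Col1a1, the α1 chain of type I collagen, was 7.56 and 10.01 FPKM in the negative libraries and 3.73 and 5.97 FPKM in the positive ones. Col1a2, its partner chain, was 7.87 and 11.5 FPKM against 3.45 and 6.31 FPKM. For both genes the groups were apart on summed FPKM, though closer than for the FACIT chains (limma, changes -0.76 ± 0.273 and -0.88 ± 0.325, adjusted p = 0.175 and 0.181). With length weighting the groups of both genes overlapped. Col1a1 was then 4.76 and 9.16 FPKM against 2.43 and 5.34 FPKM, and Col1a2 5.25 and 11.0 FPKM against 2.50 and 6.07 FPKM.

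Type I collagen is built of α1 and α2 chains, and their genes kept close levels. The ratio of Col1a1 to Col1a2 was 0.961 and 0.874 in the negative libraries and 1.08 and 0.947 in the positive ones. All of the Col1a2 FPKM lay on assembled transcripts.

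Col3a1, the chain of type III, was 7.02 and 15.3 FPKM in the negative libraries and 3.28 and 9.63 FPKM in the positive ones. The groups overlapped, since the positive library of experiment 2 was above the negative library of experiment 1, yet the negative library was the higher one in each experiment, 2.14-fold and 1.59-fold (limma, adjusted p = 0.445, and 0.0661 with experiment as a block). Col5a2, a chain of the type V collagen that starts fibrils, was 1.65 and 4.77 FPKM against 0.456 and 1.71 FPKM, and its groups overlapped narrowly (limma, change -0.98 ± 0.496, adjusted p = 0.288).

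Col5a1 and Col5a3, further type V chains, were too low to be tested. Col5a1 was 0.807 and 1.42 FPKM in the negative libraries and 0.403 and 0.755 FPKM in the positive ones. Col5a3 was 0.486 and 1.94 FPKM against 0.156 and 0.277 FPKM. Neither pair of groups overlapped. The other 5 fibrillar genes (Col2a1, Col11a1, Col11a2, Col24a1 and Col27a1) stayed under 1 FPKM.

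The type VI genes encode the chains of beaded microfilaments, and the main form joins the products of Col6a1, Col6a2 and Col6a3. Col6a1 was 2.60 and 4.80 FPKM in the negative libraries and 0.759 and 1.88 FPKM in the positive ones. Col6a2 was 1.86 and 3.48 FPKM against 0.565 and 1.64 FPKM, and Col6a3 was 1.45 and 2.96 FPKM against 0.623 and 1.53 FPKM. The groups were apart for Col6a1 and Col6a2 and overlapped for Col6a3, and all 3 genes were higher in experiment 2 in both fractions. None passed (limma, adjusted p = 0.175, 0.248 and 0.338), and Col6a1 passed with experiment as a block (adjusted p = 0.0443).

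Among the remaining classes, Col23a1 and Col13a1 encode collagens that span the cell membrane. Col23a1 was 3.10 and 6.72 FPKM in the negative libraries and 1.44 and 2.13 FPKM in the positive ones. The groups did not overlap (limma, change -1.02 ± 0.364, adjusted p = 0.171), and it passed without the negative library of experiment 1 (limma, adjusted p = 0.0499). Without that of experiment 2 its change was -0.57 (limma, adjusted p = 0.285). Col13a1 was 0.657 and 1.62 FPKM against 1.38 and 1.27 FPKM, so the positive libraries lay between the negative ones. Its change of 0.16 ± 0.285 turned to -0.17 without the negative library of experiment 1.

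Col8a1, a short chain collagen of vessel walls and other tissues, was 1.19 and 2.22 FPKM in the negative libraries and 0.785 and 1.001 FPKM in the positive ones, with groups apart (limma, change -0.49 ± 0.265, adjusted p = 0.312). Col28a1, whose product is known around Schwann cells, was 0.144 and 2.13 FPKM against 0.00708 and 0.107 FPKM and was too low to be tested. Its FPKM lay on assembled transcripts, and 1 negative library held nearly all of it. Of the 43 members, 21 stayed under 1 FPKM in every library, the highest being Col6a4 at 0.685 FPKM, and Col10a1 was listed at 0 throughout.

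Basement membrane and fibrillar chains were compared as sums. The 9 basement membrane zone chains (Col4a1 to Col4a6, Col7a1, Col15a1 and Col18a1) summed to 156.1 and 159.0 FPKM in the negative libraries and to 83.1 and 86.3 FPKM in the positive ones. The 11 fibrillar chains summed to 26.2 and 46.2 FPKM against 12.04 and 25.2 FPKM. The basement membrane groups did not overlap, and the fibrillar groups nearly touched. The basement membrane sums were 105.3 and 134.8 FPKM against 57.7 and 64.5 FPKM with length weighting. The 2 negative libraries were thus closer on summed FPKM than on that measure. Length-weighted fibrillar sums were 18.9 and 41.0 FPKM against 8.68 and 21.45 FPKM, and these groups overlapped.

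The negative mean was 1.86 times the positive mean for basement membrane chains and 1.94 times for fibrillar chains. The fibrillar ratio was 1.41 without the negative library of experiment 2 and 3.01 without the positive library of experiment 2. The ratio of the basement membrane sum to the fibrillar sum was 5.96 and 3.44 in the negative libraries and 6.90 and 3.42 in the positive ones. It was higher in experiment 1 than in experiment 2 in both fractions, and the ranges of the fractions overlapped. Length-weighted ratios were 5.58 and 3.28 against 6.65 and 3.01, with the same order. With 2 libraries a group no exact permutation test can reach 0.05, so the sums were not tested.

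**Figure D3:**
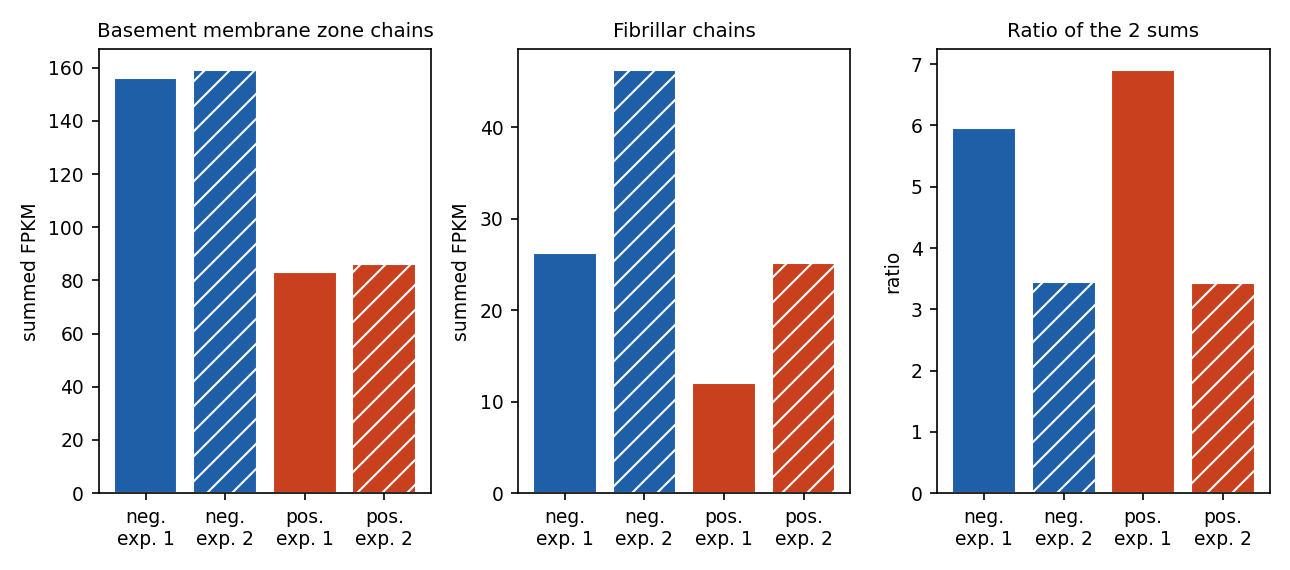
Summed FPKM of the 9 basement membrane zone chains (left) and the 11 fibrillar chains (middle), and the ratio of the 2 sums (right), 1 bar per library. Blue is reporter negative, red reporter positive, and hatched bars are experiment 2. Both sums are lower in the positive libraries, while the fibrillar groups overlap with length weighting. The ratio is 3.44 and 3.42 in the libraries of experiment 2 and 5.96 and 6.90 in those of experiment 1.

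The make-up of the collagen transcripts was read as shares. All collagen chains together summed to 244.4 and 272.4 FPKM in the negative libraries and 108.8 and 131.8 FPKM in the positive ones. Basement membrane zone chains made up 63.9% and 58.4% of this in the negative libraries and 76.3% and 65.5% in the positive ones. Col18a1 alone made up 37.5% and 39.8% against 49.95% and 45.9%. On summed FPKM neither share overlapped between the groups, and they were not tested. The total holds the FACIT chains, whose negative mean was 5.22 times the positive mean, beside 1.86 times for basement membrane zone chains. Each share depends on those chains too. With length weighting the basement membrane share was 66.3% and 56.7% against 75.2% and 62.1%, and its groups overlapped.

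The fibrillar and type VI sums were higher in experiment 2 than in experiment 1 in both fractions. On summed FPKM the type IV sum was higher in experiment 2 in the negative fraction and lower in the positive one, and the FACIT sum the reverse. With length weighting both sums were higher in experiment 2 in both fractions. Type IV was then 10.3 and 25.4 FPKM against 5.74 and 6.10 FPKM, and FACIT 24.85 and 39.9 FPKM against 5.63 and 8.88 FPKM. Of the 18 members tested, 13 were higher in experiment 2 than in experiment 1 in both fractions, all 4 fibrillar and all 3 type VI genes among them, against 41.8% of all genes tested. With experiment as a block, 6 members passed as lower: Col12a1, Col16a1, Col4a6, Col4a5, Col18a1 and Col6a1 (6.36% of all genes tested). With length weighting and the block together 10 passed as lower (9.36% of all genes tested): Col4a5, Col7a1, Col18a1, Col1a2, Col3a1, Col5a2, Col6a1, Col12a1, Col16a1 and Col23a1.

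Markers of other skin cells were read in the same libraries. The 16 fibroblast markers summed to 188.9 and 331.2 FPKM in the negative libraries and 59.9 and 72.6 FPKM in the positive ones. Postn was the largest part of this sum in both negative libraries. Of the 7 tested 2 passed, both lower (2.52% of all genes tested). Of the 16, 9 were lower in the positive fraction in both experiments (44.7% of genes above 0 in any library). Twist2 was the 1 that was higher in both (18.2%). Those that passed were Thy1, at 15.2 and 32.5 FPKM against 0.521 and 1.80 FPKM (limma, adjusted p = 0.0324), and Postn, at 89.7 and 190.9 FPKM against 4.78 and 11.0 FPKM (adjusted p = 0.0283). Vim was 14.8 and 39.4 FPKM against 5.92 and 8.38 FPKM, and Fbln1 was 37.9 and 39.8 FPKM against 25.97 and 25.02 FPKM, with groups apart for both. Pdgfrb and Fap stayed under 1 FPKM and were also lower in both experiments, Pdgfrb at 0.298 and 0.503 FPKM against 0.0268 and 0.171 FPKM. Pdgfra was 0.174 and 0.200 FPKM against 0.154 and 0.444 FPKM, and Dcn was 3.36 and 2.61 FPKM against 1.79 and 3.61 FPKM, with overlapping groups. The groups also overlapped for Lum, Dpt, Pi16, Clec3b and Fn1.

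The other lists were smaller. The 8 pericyte and smooth muscle markers summed to 38.3 and 43.5 FPKM in the negative libraries and 25.3 and 25.4 FPKM in the positive ones. Of the 5 tested 1 passed, Acta2, which was lower (limma, adjusted p = 0.036; 2.52% of all genes tested). Of the 8, 6 were lower in the positive fraction in both experiments (44.7% of genes above 0 in any library). Notch3 was the 1 that was higher in both (18.2%), at 3.78 and 5.62 FPKM against 8.27 and 8.62 FPKM (limma, adjusted p = 0.132). The 9 endothelial markers summed to 19.0 and 18.8 FPKM against 11.5 and 10.2 FPKM. The 8 leukocyte markers, with Cd52 at 0, summed to 9.20 and 9.46 FPKM against 9.11 and 19.2 FPKM, and 7 adipocyte and muscle markers, with Plin1 and Cidec at 0, to 0.056 to 0.180 FPKM. The part of other cells in the collagen values was not tested.

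Of the 22 members that reached 1 FPKM, 19 had their highest value in the negative library of experiment 2, and Col7a1, Col12a1 and Col16a1 in that of experiment 1. The former library also held the highest value of 5 of the 7 Schwann cell and melanocyte markers, 6 of the 9 endothelial and 7 of the 16 fibroblast markers. The share of all genes with their highest value there was not taken, so these counts have no background. Col5a1, Col5a3, Col15a1 and Col28a1 reached 1 FPKM only in that library, so the 1 FPKM filter fixed their place. The 7 Schwann cell and melanocyte markers read here, with Pmel at 0, summed to 7.28 and 17.4 FPKM in the negative libraries and 5.02 and 7.49 FPKM in the positive ones. Sox10, a factor of Schwann cells and melanocytes, was 0.309 and 2.34 FPKM against 0.0111 and 0.0768 FPKM. Kdr, an endothelial receptor gene, was 0.254 and 1.91 FPKM against 0.0683 and 0.102 FPKM.

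On summed FPKM, other markers of the same lists were highest elsewhere. Tie1 was 5.11 and 3.84 FPKM in the negative libraries and 7.99 and 6.31 FPKM in the positive ones. Vwf was nearly level in the negative libraries, at 1.33 and 1.28 FPKM, and Egfl7 was 7.05 FPKM in the negative library of experiment 1 and listed at 0 in the other 3. Mlana was highest in the positive library of experiment 2, at 0.669 FPKM. The endothelial sum did not differ between the negative libraries as Sox10, Kdr and the 4 plotted collagen genes did. Of that sum in experiment 1, Egfl7 alone gave 7.05 FPKM. With length weighting every endothelial marker but Egfl7 was higher in the negative library of experiment 2 than in that of experiment 1.

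**Figure D4:**
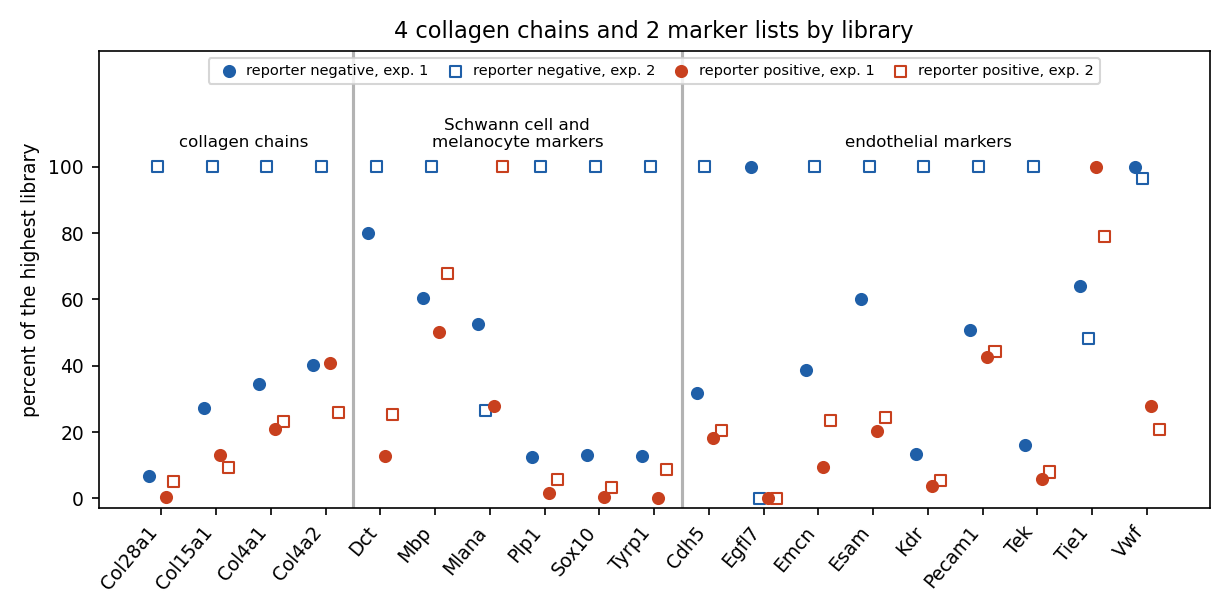
Level in each library as a percentage of the gene's highest library, for 4 collagen genes chosen after their values were seen and for all Schwann cell, melanocyte and endothelial markers above 0 in any library. Blue is reporter negative, red reporter positive, filled circles are experiment 1 and open squares experiment 2. The reporter negative library of experiment 2 is at 100% for the 4 collagen genes and for 11 of the 15 markers. Col15a1 and Col28a1 reached 1 FPKM only there, so the 1 FPKM filter fixed their place. The share of all genes with their highest value there was not taken, so these counts have no background. Mlana, Egfl7, Tie1 and Vwf are highest in other libraries on the summed FPKM drawn here. With length weighting Tie1 and Vwf are highest in the reporter negative library of experiment 2.

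Genes that fold, process, bind or degrade collagen were read from 5 lists of 73 genes. Of the 42 tested, 9 passed as lower and 0 as higher (limma; 2.52% and 2.55% of all genes tested). At an unadjusted p under 0.05, 25 were lower and 1 higher (18% and 7.59% of all genes tested). Without the negative library of experiment 2 the count was 1, Serpinh1. Without the positive library of experiment 1 there were 3, and without that of experiment 2 there were 6. With experiment as a block 15 passed as lower (6.36% of all genes tested) and 0 as higher. On Ensembl transcripts alone none of the 9 passed in limma, with 15 of the tested genes lower and 0 higher at an unadjusted p under 0.05.

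Of the 20 folding and modification genes 16 were tested, and 5 passed as lower. Serpinh1, the collagen chaperone HSP47, was 102 and 93.7 FPKM in the negative libraries and 37.8 and 38.6 FPKM in the positive ones. The positive libraries were nearly equal and far below the negative ones (limma, change -1.34 ± 0.131, adjusted p = 0.018), and the call held in all 4 fits that left out a library. P4ha3, a prolyl 4-hydroxylase subunit, was 2.47 and 4.47 FPKM against 0.0817 and 0.139 FPKM (adjusted p = 0.036) and entered the test only through the negative libraries.

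The lysyl hydroxylase genes Plod1 and Plod3 and the prolyl 3-hydroxylase gene P3h2 also passed. Plod3 was 16.3 and 20.1 FPKM in the negative libraries and 6.38 and 6.89 FPKM in the positive ones (limma, adjusted p = 0.0333). Plod1 was 5.08 and 7.07 FPKM against 1.66 and 1.87 FPKM (limma, adjusted p = 0.0474). P3h2, which acts on type IV chains, was 25.1 and 27.2 FPKM against 11.9 and 11.2 FPKM (limma, adjusted p = 0.032). In each gene both positive libraries were below both negative ones.

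Of the 15 processing and cross-linking genes 6 were tested and 1 passed. Bmp1, the protease that removes the C-terminal propeptide of fibrillar procollagens and also acts on type VII, was 31.6 and 37.4 FPKM in the negative libraries and 13.3 and 14.8 FPKM in the positive ones (limma, change -1.24 ± 0.163, adjusted p = 0.0316). The groups were far apart.

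Of 20 other basement membrane components 11 were tested and 3 passed as lower. Smoc2, a matricellular protein of basement membranes, was 16.7 and 26.0 FPKM in the negative libraries and 1.38 and 2.81 FPKM in the positive ones, the largest ratio among the 3 (10.2-fold; limma, change -2.86 ± 0.338, adjusted p = 0.0249). Agrn, the heparan sulfate proteoglycan agrin, was 39.3 and 33.2 FPKM against 15.4 and 16.7 FPKM (limma, adjusted p = 0.0349). Median-of-ratios scaling ended the call of Agrn (adjusted p = 0.0677), and on Ensembl transcripts alone its change turned to 0.62 (limma, adjusted p = 0.864). Lamc1, the γ1 chain of most laminins, was 11.3 and 14.3 FPKM against 2.89 and 4.43 FPKM (limma, adjusted p = 0.0416; 0.105 with length weighting).

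None of the 4 tested of 10 receptor genes passed, with 3 lower and 0 higher at an unadjusted p under 0.05. Itgb1, the β1 chain of the collagen-binding integrins, was 192.8 and 220.7 FPKM in the negative libraries and 123.1 and 157.0 FPKM in the positive ones (limma, adjusted p = 0.142, and 0.0474 with experiment as a block). Itga2, the α2 chain, was 6.09 and 7.92 FPKM against 3.03 and 4.42 FPKM (adjusted p = 0.144). The groups were apart for both genes.

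None of the 5 tested of 8 degrading protease genes passed, with 2 lower and 0 higher at an unadjusted p under 0.05. Mmp2, a gelatinase that also cleaves type IV collagen, was 6.11 and 8.55 FPKM in the negative libraries and 1.46 and 2.89 FPKM in the positive ones (limma, adjusted p = 0.0744, and 0.0245 with experiment as a block). Mmp14, which activates Mmp2, was 35.1 and 55.4 FPKM against 20.6 and 27.9 FPKM (limma, adjusted p = 0.148, and 0.0329 with the block). Both genes had the positive libraries below the negative ones.

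**Figure D5:**
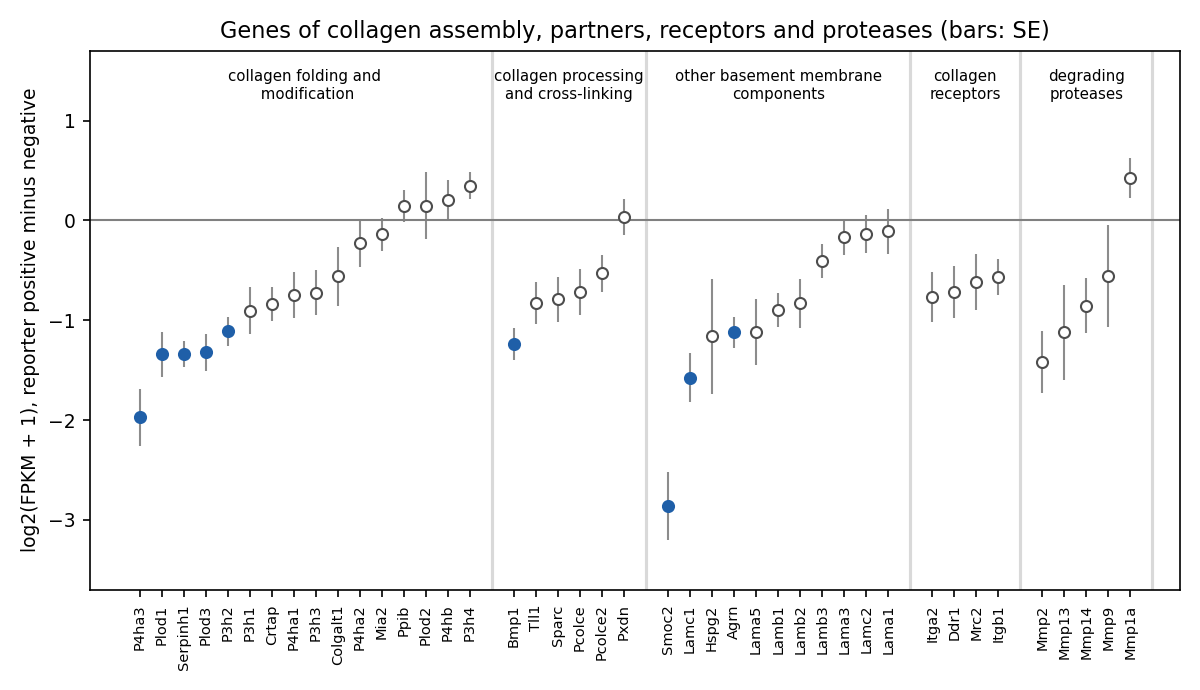
Change of the 42 tested genes of collagen folding, processing, basement membrane partners, receptors and proteases, as the log2(FPKM + 1) of reporter positive less that of negative libraries, with SE bars, n = 2 libraries per group. Filled blue points passed the test (limma, adjusted p under 0.05) and open points did not. The 9 filled points all lie below 0, and Smoc2 is the lowest.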

How the data were processed

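Per the submitters' processing notes, the authors used TopHat, Cufflinks and mouse build mm9. No version of either tool is stated in the sources. Libraries were made from mRNA with an Illumina TruSeq kit, per the labels' protocols. The deposited files list, per the file headers, an FPKM value with its interval and coverage for each annotated and assembled transcript.

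Genes were rebuilt with Python 3.11.15 and pandas 2.3.3. GENCODE M21, which describes another build, gave gene names only: 84047 of 96734 annotated transcripts matched it by transcript ID, and 5138 by gene ID. The remaining 7549 and the assembled ones went to the gene whose same-strand exons held at least 50% of their length, which placed 11.8% to 13.3% of FPKM. Transcripts under 200 bases, which held 95.1% to 98.9% of all FPKM, were left out. Exact zeros can be failed estimates, so such a gene is called listed at 0.

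The filter kept genes that reached 1 FPKM in 2 or more libraries. The test was limma 3.58.1 (R 4.3.3, eBayes with trend) on log2(FPKM + 1), two-sided, with Benjamini-Hochberg adjustment over 11969 genes. The fit was tested on simulated data. The titles name the experiment of each library, which pairs the fractions. The difference between experiments correlated between fractions at r = 0.174 across 11969 genes. Experiment as a block was an alternative.

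Every member with at least 1 FPKM in any library is named with its values. Of each pathway list, up to 6 passing genes with the smallest p are named, or else the 2 with the smallest p. Members and lists were chosen with earlier results of these data known. 1 marker gene is not reported here.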

Additional observations from a re-analysis of the deposited data

How the results depend on the processing

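The alternatives were experiment as a block, median-of-ratios and quantile scaling, a pseudocount of 0.1, no filter or a filter of 5 FPKM, Ensembl transcripts alone, the most abundant transcript per gene, genes listed at 0 left out, each library left out, and, chosen after seeing the data, length weighting. The count of collagen genes past the threshold, 3 with all libraries, was 6 with the replicate block, 5 with genes listed at 0 left out and 10 with length weighting and the block. It was 0 in limma without a filter, on Ensembl transcripts alone and on the most abundant transcript, where 7, 6 and 9 members were lower and 0 higher at an unadjusted p under 0.05. It was 2 to 4 with 1 library left out. The counts over all genes (607) were 1250, 1209 and 1721 under the first 3 of these and 4, 71 and 312 under the others, and 176 to 770 with 1 library left out. The pathway count (9) was 15, 14 and 19, then 0, 0 and 3 (31, 15 and 22 lower and 1, 0 and 0 higher unadjusted), and 1 to 10 with 1 library left out.

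Of 244 values of single members under an alternative, 214 kept direction and side of the threshold, 13 no longer passed, 16 newly passed, and 1 reversed: Col13a1, at -0.17 without the negative library of experiment 1 (-0.17 to 0.49 with any library left out). Adjusted p of Col12a1 was 0.0637, 0.0653 and 0.0868, and of Col16a1 0.0738, 0.153 and 0.0569, without a filter, on Ensembl transcripts alone and on the most abundant transcript. The cause was not tested. The replicate block changed the calls of Col4a5, Col18a1 and Col6a1 and of no other member. The ratio of negative to positive sums was 1.58 for basement membrane zone chains (1.86 as reported) and 1.63 for fibrillar chains (1.94) with median-of-ratios scaling. For basement membrane chains it was 1.62 on the most abundant transcript, 1.97 with length weighting, 2.77 for type IV alone, and 1.83 to 1.90 with 1 library left out, and for fibrillar chains 1.41 to 3.01. Without 1 library, the lone library of a group is assumed to vary like the other group. The interval of an FPKM value covers counting error only, and 2 libraries a group limit what could pass.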
